A study of Mus musculus with 81 samples.

Results

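The Ifit genes were followed across every group of a study of mouse macrophages that lack the histone variant H3.3. All genes whose symbol starts with Ifit and belongs to the interferon-induced family with tetratricopeptide repeats were taken, which gave 6 of the 55603 genes listed in the count files: Ifit1, Ifit2, Ifit3, Ifit3b, Ifit1bl1 and Ifit1bl2. The rule used the symbol and no measured value, and the family itself was picked with earlier results of these data known. All 6 were listed in each of the 81 libraries, of which 79 had a group.

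Ifit genes are interferon-stimulated genes (ISGs). Type I interferon binds the receptor IFNAR1/IFNAR2, the kinases JAK1 and TYK2 switch on the factor ISGF3, which holds STAT2 and IRF9 and binds interferon-stimulated response elements (ISREs) in front of ISGs. IRF3 and IRF7, activated downstream of the RNA adaptor MAVS and the DNA sensor adaptor STING, can switch on Ifit genes directly. IFIT1 binds RNA whose cap lacks the ribose methylation of host mRNA and keeps it from being translated. IFIT2 binds AU-rich double-stranded RNA, and IFIT3 partners with other IFIT proteins and steadies them. Ifit3b is a near copy of Ifit3, and Ifit1bl1 and Ifit1bl2 are Ifit1-like genes of less known function. In macrophages these genes are standard readouts of an interferon response.

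All mice were C57BL/6 and carried floxed alleles of both H3.3 genes (H3f3a fl/fl:H3f3b fl/fl). WT animals had no Cre, and cKO animals carried LysM-Cre on both alleles, so that every cKO library also lost Lyz2, the gene that hosts the Cre, and loss of H3.3 and loss of Lyz2 cannot be told apart. Animals were 8 to 10 weeks old and of either sex. The groups were bone marrow cells growing into bone marrow-derived macrophages (BMDMs) on days 3, 5 and 7 (3 WT and 3 cKO each), day 8 BMDMs left untreated or given IFNγ for 12 h (3 WT and 2 cKO each), peritoneal macrophages taken from the animal (3 and 3), and BMDMs grown to day 6 with no antibody, a control IgG1 antibody or an antibody that blocks IFNAR1 (3 WT and 3 cKO each). A last experiment held 3 sets of WT and cKO BMDMs, and BMDMs of cKO mice that also lacked Sting, Mavs or Irf7 (cKO:StingKO, cKO:MavsKO and cKO:Irf7KO), 3 libraries per group. Replicates are labelled biological, without saying whether each is another animal, so p-values measure the spread between these libraries.

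Gene counts per library ran from 14419697 to 20220329 in the time course, 3614967 to 9879339 on day 8, 7625225 to 23381318 in peritoneal macrophages, 5295144 to 34380735 with antibodies and 21504555 to 45581528 in the last experiment. H3f3a stood at 33.6 to 93.8 CPM (gene counts scaled by library size to 1000000) in WT and 1.21 to 15.3 CPM in cKO libraries, with no overlap. H3f3b stood at 295 to 468 CPM in WT and 16.7 to 67.8 CPM in cKO libraries of the antibody experiment. Elsewhere its genotypes lay closer, without overlap in untreated day 8 cells and in sets 2 and 3 and with overlap on each day of the time course (181 to 280 and 149 to 222 CPM over all days), with IFNγ, in peritoneal cells and in set 1. Tmem173, which encodes STING, stood at 5.01 to 6.10 CPM in the cKO:StingKO libraries and 68.2 to 91.6 CPM in the cKO sets. Mavs stood at 37.2 to 37.9 CPM in the cKO:MavsKO libraries, lower by a log2 fold change of -0.26 (adjusted p = 0.00439) than the mean of the cKO sets, below all libraries of cKO sets 1 (42.9 to 51.6 CPM) and 2 (48.5 to 51.0 CPM) and within the range of set 3 (36.0 to 41.9 CPM), so that a gene total is a weak check of that allele. The 7 macrophage markers were above 0 in every group, and the peritoneal macrophage markers Gata6, Icam2 and Timd4 summed to 2077 to 2749 CPM in peritoneal cells against at most 31.3 CPM in BMDMs.

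The family sits in 1 stretch of chromosome 19 (GRCm38, gene ends as GENCODE annotates them): Ifit2 at chr19:34550694-34576419 on the plus strand, then Ifit3 (chr19:34583531-34588731, plus), Ifit1bl1 (chr19:34592891-34601956, minus), Ifit3b (chr19:34607970-34613401, plus), Ifit1bl2 (chr19:34617049-34640743, minus) and Ifit1 (chr19:34640871-34650009, plus). The 250 bases upstream of each RefSeq transcript start were searched on both strands for the ISRE core GAAANNGAAA, written TTTCNNTTTC on the other strand. The core occurred in 3.46% of 27025 genes, and at 2 or more places in 0.21%. Ifit1, Ifit3, Ifit3b and Ifit1bl2 held 2 cores in front of a start, and Ifit1bl1 held 1 in front of each of its 2 starts. Ifit2 held none in the windows searched. The windows just upstream are given here, read 5′ to 3′ on each gene's own strand from RefSeq sequence of GRCm38.p6, with the ISRE cores in capitals, to show the pair of cores that several members share, the other core of Ifit1bl1 and the window of Ifit2 without one. They cover chr19:34640744-34640870 for Ifit1, chr19:34583349-34583528 for Ifit3, chr19:34607745-34607924 for Ifit3b, chr19:34601969-34602148 on the minus strand for Ifit1bl1 and chr19:34550514-34550693 for Ifit2.
Ifit1: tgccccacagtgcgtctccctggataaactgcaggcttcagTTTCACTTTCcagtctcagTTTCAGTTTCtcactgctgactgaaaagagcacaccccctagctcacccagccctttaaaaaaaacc
Ifit3: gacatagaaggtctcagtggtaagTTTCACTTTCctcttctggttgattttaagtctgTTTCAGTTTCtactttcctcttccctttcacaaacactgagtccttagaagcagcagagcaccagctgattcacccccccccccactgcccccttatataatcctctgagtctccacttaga
Ifit3b: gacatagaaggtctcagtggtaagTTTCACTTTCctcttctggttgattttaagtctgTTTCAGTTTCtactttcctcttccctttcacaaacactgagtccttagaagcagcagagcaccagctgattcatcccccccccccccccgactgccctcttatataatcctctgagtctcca
Ifit1bl1: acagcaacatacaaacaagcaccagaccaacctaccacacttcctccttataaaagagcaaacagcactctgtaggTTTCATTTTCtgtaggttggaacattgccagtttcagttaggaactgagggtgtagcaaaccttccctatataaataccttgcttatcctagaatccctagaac
Ifit2: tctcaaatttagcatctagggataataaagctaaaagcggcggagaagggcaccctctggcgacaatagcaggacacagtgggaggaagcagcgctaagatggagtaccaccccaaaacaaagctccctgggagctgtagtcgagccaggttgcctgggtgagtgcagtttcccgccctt

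Ifit1, Ifit3 and Ifit3b carried the same pair of cores, TTTCACTTTC followed by TTTCAGTTTC. Ifit1 and Ifit1bl2 start back to back with 145 bases between their RefSeq starts, so the pair printed for Ifit1 is also the pair of Ifit1bl2, read from the other strand. A match is a run of letters and not a shown binding site.

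The windows of Ifit3 and Ifit3b were 92.5% identical, and their coding sequences 99.1% identical (1198 of 1209 bases). Of all 50-base stretches of Ifit3, 51.2% also occurred in Ifit3b, and 31.7% of the 100-base stretches did. Reads that fit both copies have several places in the genome and are not counted. Counts of these copies can therefore be lost, and their levels are uncertain, while both are counted the same way in every library. Ifit1bl1 and Ifit1bl2 were 87.5% identical to each other and 74.0% and 73.8% identical to Ifit1, and the remaining pairs lay between 52.0% and 56.5%.

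On day 3 of culture, all 6 Ifit genes were higher in cKO than in WT cells. Ifit1 stood at 1.36, 0.821 and 0.505 CPM in the WT libraries (replicates 1 to 3) and at 70.2, 79.6 and 125 CPM in the cKO libraries. Ifit2 was the only member above 4 CPM in WT cells, at 5.05, 6.45 and 4.16 CPM, and reached 158, 123 and 249 CPM in cKO cells. Ifit3 went from 1.43, 0.411 and 0.168 CPM to 85.1, 68.8 and 125 CPM. No cKO library overlapped a WT library for these genes. Ifit3b was at or near 0 in WT cells (0.341, 0 and 0.0562 CPM) and at 26, 21.3 and 31.7 CPM in cKO cells. Ifit1bl1 (0.341, 0.176 and 0.168 CPM against 15.1, 10.5 and 17.7 CPM) and Ifit1bl2 (0.205, 0.235 and 0.786 CPM against 5.47, 3.9 and 6.48 CPM) had the lowest levels in cKO cells, and they too did not overlap. edgeR's quasi-likelihood test over 15955 genes gave log2 fold changes of 6.70 (SE 1.04, adjusted p = 0.00103) for Ifit1, 5.08 (SE 0.95, adjusted p = 0.00381) for Ifit2 and 7.18 (SE 1.21, adjusted p = 0.00188) for Ifit3. Ifit3b gave 7.67 (SE 1.51, adjusted p = 0.00501), Ifit1bl1 5.98 (SE 1.30, adjusted p = 0.00965) and Ifit1bl2 3.64 (SE 0.82, adjusted p = 0.0117). Thus 6 of 6 members rose, beside 7.73% of all genes tested called in either direction and 5.19% called higher. Groups without overlap were found for 34.1% of all genes. The median log2 fold change was 6.34 over the members and 0.04 over all genes. Without WT replicate 1 the call was kept by 5 members, and without WT replicate 2 by 4, with Ifit1bl1 and Ifit1bl2 the members involved.

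Other cells were also present on day 3. The 6 neutrophil markers summed to 889 to 1822 CPM in WT and 1629 to 2337 CPM in cKO libraries, and the 5 B cell markers to 11.6 to 12.3 CPM and 24.8 to 49.0 CPM. The 4 T and NK cell markers summed to 3.55 to 6.4 CPM and 5.12 to 8.93 CPM, and the 3 markers of plasmacytoid dendritic cells, which make much type I interferon, to 48.0 to 67.0 CPM and 59.5 to 72.3 CPM. The 3 peritoneal macrophage markers summed to 7.02 to 7.64 CPM in WT and 15.4 to 16.6 CPM in cKO libraries, without overlap. The part of these markers in the result was not tested. In bulk RNA fewer cells of a type and less RNA per cell cannot be told apart.

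Genes that act with the Ifit genes were taken as lists, with values for the most highly expressed members of each. Of 17 effector genes directed at RNA, among them the OAS enzymes that make the activator of RNase L, 16 rose on day 3 and none fell. Oas3 (log2 fold change 5.01, adjusted p = 0.000839) and Oasl2 (6.28, adjusted p = 0.000594) were among them. Of 4 RNA sensors 3 rose, including Ddx58, which encodes RIG-I (3.67, adjusted p = 0.000594), and Ifih1, which encodes MDA5 (2.47, adjusted p = 0.00149). None of 4 enzymes or partners of cap methylation passed the test, with Rnmt at 0.15 (adjusted p = 0.477) and Ramac at -0.05 (adjusted p = 0.889).

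Upstream of the Ifit genes on day 3, 1 of the 20 listed interferon genes was expressed enough to be tested, and it rose: Ifnb1, with a log2 fold change of 5.77 (SE 1.59, adjusted p = 0.035). Its level was low, with an average log2 CPM of -0.946 over the libraries of the time course. Of 5 inducing factors 2 rose, Irf7 among them (6.6, adjusted p = 0.0011), while Irf5 stood at -0.07 (adjusted p = 0.876). Of 6 signalling genes 4 rose, including Stat2 (2.83, adjusted p = 0.000982), and Jak1 stood at -0.01 (adjusted p = 0.987). Of 4 receptor genes 1 fell, Ifnar1 by 0.42 on the log2 scale (adjusted p = 0.0148), and Ifngr2 stood at -0.03 (adjusted p = 0.95). Of 3 feedback genes 2 rose, including Usp18, which holds back signalling at IFNAR2 (5.82, adjusted p = 0.000515), and Socs3 stood at 0.83 (adjusted p = 0.528). Of 6 tested genes that lie beside the cluster on chromosome 19 none rose and 1 fell, Lipa, a lysosomal lipase, by 0.56 on the log2 scale (adjusted p = 0.0201). The closely linked Kif20b stood at -0.50 (adjusted p = 0.293).

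On day 5, 5 of the 6 members were still called higher in cKO cells, but 1 cKO library carried much of the size. Ifit1 stood at 10.9, 1.99 and 2.37 CPM in WT and 200.4, 26.4 and 30.6 CPM in cKO libraries. Ifit2 stood at 24.6, 8.07 and 8.41 CPM against 648, 48.6 and 67.2 CPM, and Ifit3 at 5.55, 2.26 and 1.60 CPM against 284, 23.5 and 32.2 CPM. Replicate 1 was the highest library in both genotypes for all of these genes, and every cKO library lay above every WT library for all 6 members. Ifit3b ran from 0.413 to 1.13 CPM in WT and from 4.86 to 78.2 CPM in cKO, Ifit1bl1 from 0.310 to 1.43 CPM and from 2.64 to 57.8 CPM, and Ifit1bl2 from 0.103 to 0.597 CPM and from 0.976 to 5.15 CPM. By edgeR the log2 fold change was 4.09 for Ifit1 (SE 0.86, adjusted p = 0.0179), 4.22 for Ifit2 (SE 0.90, adjusted p = 0.0191) and 5.18 for Ifit3 (SE 1.03, adjusted p = 0.0132). Ifit3b (5.42, adjusted p = 0.0219) and Ifit1bl1 (4.95, adjusted p = 0.026) also rose, and Ifit1bl2 stood at 2.98 (adjusted p = 0.0827). Of all genes 2.83% were called, 2.2% were called higher, and 26.5% had no overlap. The 4 stromal markers summed to 13.1 to 42.3 CPM in WT and 67.5 to 95.3 CPM in cKO libraries of day 5 and the 3 peritoneal macrophage markers to 6.52 to 6.91 CPM and 13.3 to 24.2 CPM, without overlap, and their part in the result was not tested. Without cKO replicate 1, whose neutrophil markers summed to 1005 CPM against at most 318 CPM in WT cells, no member was called and Ifit1 stood at 2.52 (adjusted p = 0.129). Leaving out WT replicate 2 or WT replicate 3, or fitting only the 6 libraries of day 5, also left 0 members called.

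By day 7 the genotypes overlapped for all 6 members. Ifit1 stood at 113, 37.6 and 20.3 CPM in WT and 117, 63.6 and 76.8 CPM in cKO libraries. Ifit2 stood at 289, 109 and 49.3 CPM against 292, 161 and 198 CPM, and Ifit3 at 144, 37.3 and 17.2 CPM against 138, 63.2 and 72.3 CPM. WT replicate 1 sat among the cKO libraries for Ifit1 and Ifit2 and above all of them for Ifit3. Ifit3b ran from 2.17 to 30.5 CPM in WT and 11.4 to 29.6 CPM in cKO, Ifit1bl1 from 2.64 to 15.7 CPM and 5.86 to 11.2 CPM, and Ifit1bl2 from 0.207 to 1.93 CPM and 1.05 to 2.59 CPM. The 4 stromal markers summed to 4.38 to 40.4 CPM in WT and 86.4 to 125 CPM in cKO libraries of day 7. The 3 peritoneal macrophage markers summed to 3.50 to 6.36 CPM and 14.4 to 15.7 CPM. Neither sum overlapped, and their part in the result was not tested. Same-numbered libraries deviated together on this day (correlations of 0.153 to 0.467), though differently numbered ones reached 0.359. Within pairs by number the cKO library was the higher in 3 of 3 for Ifit1, Ifit2 and Ifit1bl2, in 2 of 3 for Ifit3 and Ifit3b and in 1 of 3 for Ifit1bl1. By edgeR no member was called between genotypes on day 7, beside 1.4% of all genes, none had an unadjusted p under 0.05, and DESeq2 called 0 as well. The log2 fold change of Ifit1 was 0.59 with a 95% interval of -0.98 to 2.17, and 0.89 (adjusted p = 0.374) with the replicate number as a block, which also called 0 members. Ifit2 stood at 0.54, Ifit3 at 0.47, Ifit3b at 0.45, Ifit1bl2 at 0.79 and Ifit1bl1 at -0.28, the only member with a lower mean in cKO cells in any of the 12 comparisons of cKO with WT cells.

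Within WT cells, 5 of 6 members rose from day 3 to day 7, beside 23.9% of all genes called and 12.3% called higher. The log2 fold change was 6.01 for Ifit1 (adjusted p = 0.0011), 4.83 for Ifit2 (adjusted p = 0.00254), 6.68 for Ifit3 (adjusted p = 0.00153), 6.66 for Ifit3b (adjusted p = 0.00653) and 5.39 for Ifit1bl1 (adjusted p = 0.00898). Ifit1bl2 stood at 1.11 (adjusted p = 0.36). Within cKO cells edgeR and DESeq2 called no member between these days, beside 14% of all genes by edgeR, 1 member had an unadjusted p under 0.05, and the log2 fold changes ran from -1.74 for Ifit1bl2 to 0.30 for Ifit2. With replicate number as a block, which was taken as pairing the libraries there, Ifit1bl2 fell by 1.93 on the log2 scale (adjusted p = 0.0312). These contrasts share the day 3 and day 7 libraries with the comparisons of genotype. The change of the cKO effect from day 3 to day 7 was tested directly. It was -6.10 for Ifit1 (SE 1.26, adjusted p = 0.062), -4.54 for Ifit2 (adjusted p = 0.109), -6.71 for Ifit3 (adjusted p = 0.073), -7.22 for Ifit3b (adjusted p = 0.104), -6.25 for Ifit1bl1 (adjusted p = 0.106) and -2.85 for Ifit1bl2 (adjusted p = 0.248), and none of 6 members passed edgeR's test, beside 0.0439% of all genes, which is 7 genes. All 6 had an unadjusted p under 0.05. With DESeq2, with no filter on low counts, with the block or with only the libraries of these days, 5 members passed, and without WT day 7 replicate 3, 3 did.

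**Figure D1:**
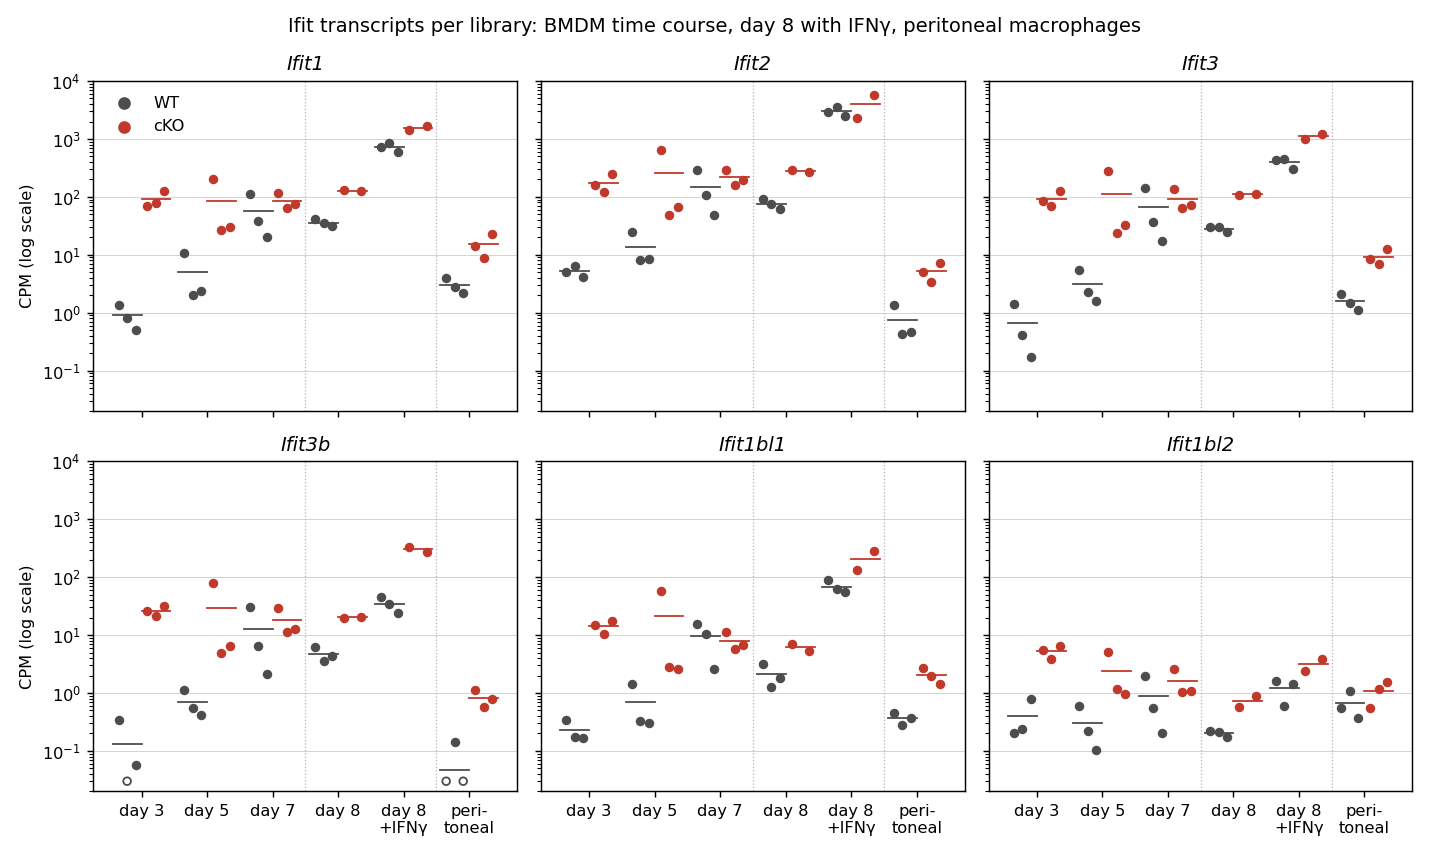
CPM of the 6 Ifit genes, 1 point per library on a log axis (open circles mark 0 CPM), in the time course, in day 8 BMDMs with and without IFNγ and in peritoneal macrophages, with WT and cKO in separate colours. On day 3 the cKO points for Ifit1 sit at 70.2 to 125 CPM and the WT points at 0.505 to 1.36 CPM, and by day 7 the genotypes overlap.

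On day 8, untreated cKO BMDMs again had higher Ifit levels, and the libraries did not overlap for any member. Ifit1 stood at 42.0, 34.7 and 31.3 CPM in WT and 129 and 125 CPM in cKO libraries. Ifit2 stood at 93.3, 74.6 and 61.5 CPM against 292 and 265 CPM, and Ifit3 at 30.0, 30.4 and 24.3 CPM against 108 and 112 CPM. Both cKO libraries lay above all 3 WT libraries for each of these genes. Ifit3b stood at 3.51 to 6.15 CPM against 20.1 and 20.5 CPM, Ifit1bl1 at 1.27 to 3.18 CPM against 6.98 and 5.38 CPM, and Ifit1bl2 at 0.175 to 0.219 CPM against 0.568 and 0.880 CPM. By edgeR the log2 fold change was 1.82 for Ifit1 (SE 0.19, adjusted p = 0.00269), 1.87 for Ifit2 (SE 0.33, adjusted p = 0.0368), 1.97 for Ifit3 (SE 0.20, adjusted p = 0.00213) and 2.12 for Ifit3b (SE 0.29, adjusted p = 0.00801). Ifit1bl1 (1.57, adjusted p = 0.252) and Ifit1bl2 (1.76, adjusted p = 0.513) did not pass. So 4 of 6 members rose, beside 0.612% of 13075 genes called, 0.505% called higher and 31.9% with no overlap. Ifit2 and Ifit3b lost the call without WT replicate 3 or without either cKO replicate, which left 2 members called, and Ifit2 lost it without WT replicate 1 or 2. Neutrophil markers summed to at most 1.34 CPM in any day 8 library. In untreated day 8 cells the 3 peritoneal macrophage markers summed to 3.08 to 5.16 CPM in WT and 7.24 to 7.31 CPM in cKO libraries. These sums did not overlap, and their part in the result was not tested.

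IFNγ, which acts through a receptor of its own, raised all 6 members in WT and in cKO BMDMs. In WT libraries with IFNγ, Ifit1 reached 712, 842 and 602 CPM, Ifit2 2932, 3546 and 2495 CPM, and Ifit3 434, 443 and 308 CPM. In cKO libraries with IFNγ, Ifit1 reached 1454 and 1658 CPM, Ifit2 2301 and 5631 CPM, and Ifit3 1016 and 1236 CPM. In scaled CPM the cKO libraries overlapped the WT libraries for Ifit2 and lay above them for the other members. The TMM scaling factor of cKO replicate 1 was 0.460, against 0.891 in the other cKO library and 0.934 to 0.982 in WT libraries with IFNγ. A low factor raises CPM. With the factors taken back out, that library fell within the WT libraries with IFNγ for Ifit1, Ifit1bl1 and Ifit1bl2. For Ifit3 and Ifit3b it stayed above them. Ifit3b reached 24.2 to 45.7 CPM in WT and 337 and 270 CPM in cKO, Ifit1bl1 54.9 to 88.2 CPM and 133 and 281 CPM, and Ifit1bl2 0.595 to 1.61 CPM and 2.41 and 3.89 CPM.

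The effect of IFNγ in WT cells was a log2 fold change of 4.32 for Ifit1 (adjusted p = 2.83e-07), 5.29 for Ifit2 (adjusted p = 3.03e-06), 3.81 for Ifit3 (adjusted p = 6.71e-07) and 2.89 for Ifit3b (adjusted p = 2.25e-05). Ifit1bl1 gave 5.04 (adjusted p = 6.78e-06) and Ifit1bl2 2.55 (adjusted p = 0.00418). All 6 rose, beside 40.1% of all genes called and 20% called higher. In cKO cells the log2 fold changes were 3.61 for Ifit1 (adjusted p = 5.67e-06), 3.83 for Ifit2 (adjusted p = 9.45e-05), 3.35 for Ifit3 (adjusted p = 8.6e-06), 3.9 for Ifit3b (adjusted p = 1.94e-05), 5.08 for Ifit1bl1 (adjusted p = 3.08e-05) and 2.22 for Ifit1bl2 (adjusted p = 0.00965). All 6 rose there too, beside 33.6% of all genes called and 17.2% called higher.

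With IFNγ present, 4 of 6 members were higher in cKO than in WT cells, beside 4.83% of all genes called and 3.2% called higher. In scaled CPM 5 did not overlap, beside 34.4% of all genes. For Ifit1, Ifit1bl1 and Ifit1bl2 this held only with the low TMM factor of cKO replicate 1. Ifit3b had the largest log2 fold change, 3.13 (SE 0.26, adjusted p = 0.000617), followed by Ifit1bl1 at 1.61 (SE 0.33, adjusted p = 0.0273), Ifit3 at 1.51 (SE 0.19, adjusted p = 0.00362) and Ifit1 at 1.11 (SE 0.19, adjusted p = 0.0126). Ifit2 stood at 0.41 (SE 0.33, adjusted p = 0.488) and Ifit1bl2 at 1.44 (adjusted p = 0.102). The value for Ifit2 rested on cKO replicate 1, the shallowest library at 3614967 counts with 57.1% of its reads unmapped. Without it, which left 1 cKO library with IFNγ, Ifit2 stood at 0.94. Without WT replicate 3, 2 members were called, with Ifit1 and Ifit1bl1 lost, and fitting only the 5 libraries with IFNγ left 1. The stromal markers summed to 53.1 CPM in 1 of these cKO libraries and 340 CPM in the other, against at most 48.8 CPM in WT libraries with IFNγ, and their part in the result was not tested.

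Whether IFNγ acted differently in the genotypes was tested as a difference of its effects (cKO minus WT). Ifit2 gave -1.46 (unadjusted p = 0.012, adjusted p = 0.508), Ifit1 -0.71 (unadjusted p = 0.025, adjusted p = 0.563) and Ifit3b 1.01 (unadjusted p = 0.027, adjusted p = 0.563). Ifit3 stood at -0.45, Ifit1bl1 at 0.04 and Ifit1bl2 at -0.33. No gene of 13075 passed edgeR's test after Benjamini-Hochberg adjustment, Ifit or other, so 3 members were under an unadjusted p of 0.05 and 0 were called, by edgeR and by DESeq2. Without the second cKO library with IFNγ, Ifit1 stood at -0.83 and Ifit2 at -2.27. These values rest on cKO replicate 1 alone, the shallowest library, with 57.1% of its reads unmapped.

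As a mean of shares per library, Ifit2 took 51.6% of the family's summed CPM in untreated and 71.0% in IFNγ-treated WT cells. In cKO cells it took 51.2% and 53.0%, of which the latter pools libraries with Ifit2 at 2301 and 5631 CPM, and no difference of these shares was tested. For the ratio of Ifit3b to Ifit3, CPM was divided by exon length in kilobases. It was 0.0669 to 0.0918 in the 3 WT libraries with IFNγ and 0.191 to 0.289 in the 2 cKO libraries with IFNγ, without overlap. In untreated day 8 cells it was 0.101 to 0.179 in WT and 0.160 to 0.162 in cKO libraries. Reads that fit both copies were counted to neither, so this ratio rests on the remaining reads and is uncertain as a level.

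In peritoneal macrophages the family was low but still higher in cKO cells. Ifit1 stood at 3.93, 2.77 and 2.19 CPM in WT and 14.2, 8.71 and 22.5 CPM in cKO libraries. Ifit2 stood at 1.35, 0.426 and 0.456 CPM against 5.09, 3.38 and 7.28 CPM, and Ifit3 at 2.14, 1.49 and 1.09 CPM against 8.56, 6.81 and 12.5 CPM. No library overlapped for these genes, nor for Ifit1bl1 (0.284 to 0.450 CPM against 1.43 to 2.74 CPM), and Ifit1bl2 overlapped (0.365 to 1.06 CPM against 0.556 to 1.56 CPM). By edgeR over 12361 genes the log2 fold change was 2.37 for Ifit1 (SE 0.39, adjusted p = 0.0323), 2.92 for Ifit2 (SE 0.52, adjusted p = 0.0446), 2.59 for Ifit3 (SE 0.36, adjusted p = 0.0173) and 2.52 for Ifit1bl1 (SE 0.44, adjusted p = 0.0427). Thus 4 of 5 tested members rose, beside 0.971% of all genes called, 0.591% called higher and 15% with no overlap. Ifit1bl2 stood at 0.66 (adjusted p = 0.816). Ifit3b was too low to be tested, with 43 counts over the cKO and 2 over the WT libraries, a depth-scaled ratio of 19.3 with a 95% counting interval of 5.03 to 165, which covers counting error only. With replicate number as a block, which paired these libraries, 1 member kept the call, Ifit3 (adjusted p = 0.0478), and Ifit1 (adjusted p = 0.0682), Ifit2 (adjusted p = 0.0629) and Ifit1bl1 (adjusted p = 0.0918) did not. The calls also fell to 0 without WT replicate 2 or 3 or cKO replicate 1 or 3, to 2 without cKO replicate 2 and to 3 without WT replicate 1. Of the 17 RNA-directed effectors 6 rose there.

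**Figure D2:**
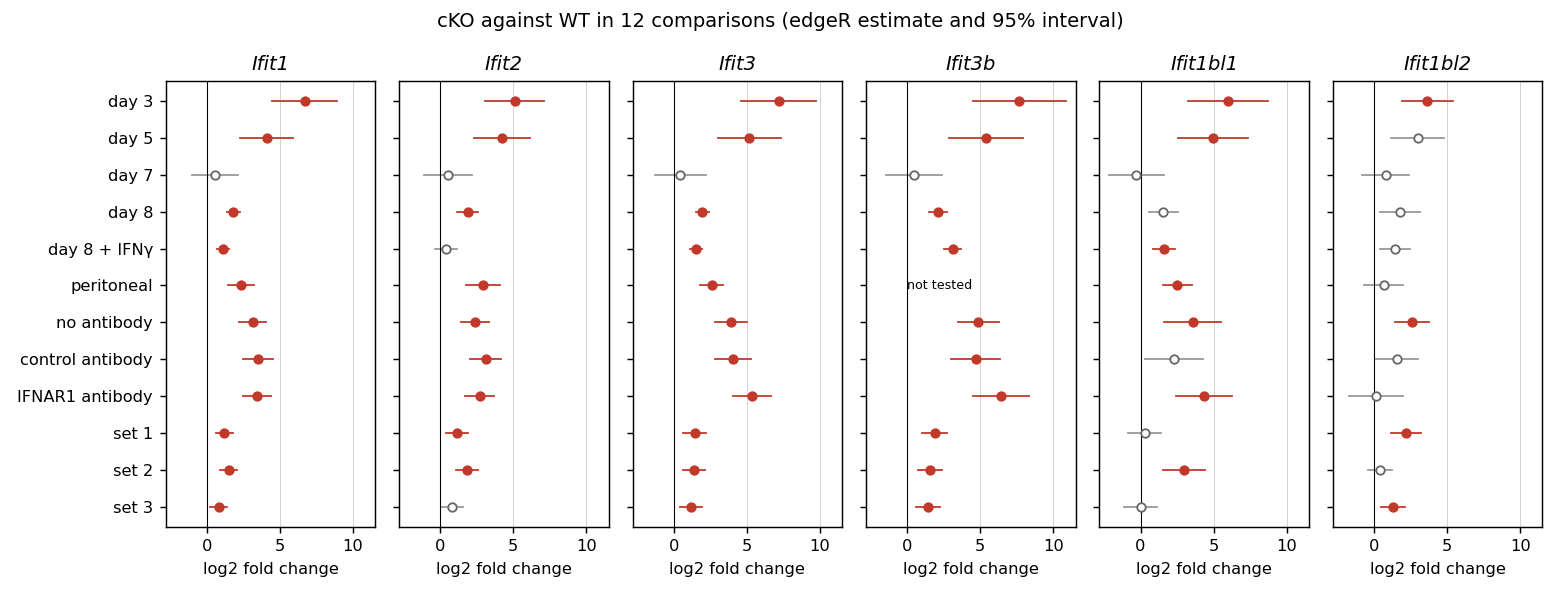
Log2 fold change, cKO against WT, of each Ifit gene in 12 comparisons with its 95% interval by edgeR, filled where the adjusted p was under 0.05. The values run from 3.64 to 7.67 on day 3, from -0.28 to 0.79 on day 7 and from 0.01 to 2.94 in the 3 sets of BMDMs.

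Over the 12 comparisons of cKO with WT cells, no member was ever called lower. Ifit1 and Ifit3 were called higher in 11, Ifit2 in 9 and Ifit3b in 10 of the 11 in which it was tested. Ifit1bl1 was called higher in 7 and Ifit1bl2 in 4 of 12. The mean was higher in cKO cells in all 12 for every member but Ifit1bl1, with 11. How many of all genes reach such counts of calls was not tested, so the counts have no background beside them. Some of the counted calls were lost when a library was left out or the fit was changed, as given for each comparison. The labels do not say whether some of the BMDM sets share cultures, so the 12 comparisons may not be independent.

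The antibody experiment asked whether Ifit levels in cKO cells depend on signalling through IFNAR1 from outside the cell. Without antibody on day 6, Ifit1 stood at 3.62, 2.12 and 0.810 CPM in WT and 25.1, 22.8 and 9.89 CPM in cKO libraries. Ifit2 stood at 17.4, 18.8 and 7.34 CPM against 129, 73.0 and 25.5 CPM, and Ifit3 at 4.08, 2.87 and 1.01 CPM against 66.0, 41.6 and 13.9 CPM. Replicate 3 was the lowest library in both genotypes, and no cKO library overlapped a WT library. All 6 members rose in cKO cells, beside 7.1% of 17191 genes called, 3.39% called higher and 39.4% with no overlap. The log2 fold change was 3.14 for Ifit1 (SE 0.43, adjusted p = 0.000703), 2.38 for Ifit2 (SE 0.46, adjusted p = 0.00699), 3.93 for Ifit3 (SE 0.52, adjusted p = 0.000585), 4.87 for Ifit3b (SE 0.67, adjusted p = 0.000688), 3.55 for Ifit1bl1 (SE 0.92, adjusted p = 0.0299) and 2.61 for Ifit1bl2 (SE 0.54, adjusted p = 0.0103).

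With the control antibody, Ifit1 stood at 1.12, 0.793 and 0.824 CPM in WT and 10.8, 11.6 and 8.82 CPM in cKO libraries. Ifit2 stood at 3.43, 2.55 and 2.56 CPM against 23, 30.2 and 20.5 CPM, and Ifit3 at 0.910, 0.850 and 0.641 CPM against 12.7, 16.4 and 12.6 CPM. These 3 genes and Ifit3b rose in cKO cells, 4 of 6 members beside 4.45% of all genes called and 2.88% called higher, by log2 fold changes of 3.50 for Ifit1 (adjusted p = 0.000568), 3.10 for Ifit2 (adjusted p = 0.0021), 4.08 for Ifit3 (adjusted p = 0.00079) and 4.68 for Ifit3b (adjusted p = 0.0029). Ifit1bl1 stood at 2.27 (adjusted p = 0.225) and Ifit1bl2 at 1.55 (adjusted p = 0.26).

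Cells with the control antibody were also set against cells with no antibody. In WT cells Ifit2 fell by 2.35 on the log2 scale (SE 0.50, adjusted p = 0.0142), and 1 of 6 members was called beside 8.9% of all genes called and 5.63% called lower. That call was lost without replicate 2 or without replicate 3 of the control arm. In cKO cells edgeR called none of 6 members, beside 1.46% of all genes, although 5 had an unadjusted p under 0.05 and the log2 fold changes ran from -1.67 to -0.39, with Ifit2 at -1.63 (adjusted p = 0.0871) and Ifit3 at -1.55 (adjusted p = 0.122). With DESeq2, or with no filter on low counts, 2 members were called in each genotype, and in cKO cells 2 were also called without cKO replicate 3 of the arm without antibody. The IFNAR1 antibody was therefore set against the control antibody, and its difference from no antibody was not tested. In cKO cells the means with no and with IFNAR1 antibody were 19.3 and 9.97 CPM for Ifit1 and 75.7 and 42.6 CPM for Ifit2. They were 40.5 and 13.1 CPM for Ifit3, 9.40 and 3.35 CPM for Ifit3b and 1.37 and 0.111 CPM for Ifit1bl2. Ifit1bl1 went the other way, with 1.08 and 1.76 CPM. The control arm also stood apart in Lyz2. In WT cells Lyz2 was at 22954 to 23380 CPM with control, 5282 to 11375 CPM with no and 8782 to 13927 CPM with IFNAR1 antibody. In cKO cells it was at 46.1 to 81.9 CPM, 11.9 to 15.8 CPM and 14.7 to 19.3 CPM in the same order. What part this difference has in the Ifit values was not tested.

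With the IFNAR1 antibody the cKO cells kept Ifit levels well above WT cells. Ifit1 stood at 0.884, 0.690 and 1.16 CPM in WT and 7.42, 10.3 and 12.2 CPM in cKO libraries. Ifit2 stood at 8.42, 6.46 and 4.81 CPM against 58.7, 34.0 and 35.1 CPM, and Ifit3 at 0.308, 0.188 and 0.416 CPM against 17.7, 8.26 and 13.2 CPM. The groups did not overlap for these genes, while 8.67% of all genes showed no overlap. By edgeR the log2 fold change was 3.43 for Ifit1 (SE 0.46, adjusted p = 0.00119), 2.70 for Ifit2 (SE 0.47, adjusted p = 0.0129), 5.36 for Ifit3 (SE 0.63, adjusted p = 0.000272) and 4.34 for Ifit1bl1 (SE 0.90, adjusted p = 0.0396). Ifit3b was called at 6.42 (adjusted p = 0.00168), a value set by 126 counts over the cKO and 2 over the WT libraries, with a ratio of 103 and a 95% counting interval of 27.9 to 858. Ifit1bl2 stood at 0.14 (adjusted p = 0.969). So 5 of 6 members rose, beside 0.675% of all genes called and 0.477% called higher. Without WT replicate 2, 3 members were called, and fitting only the 6 libraries of this arm left 1.

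**Figure D3:**
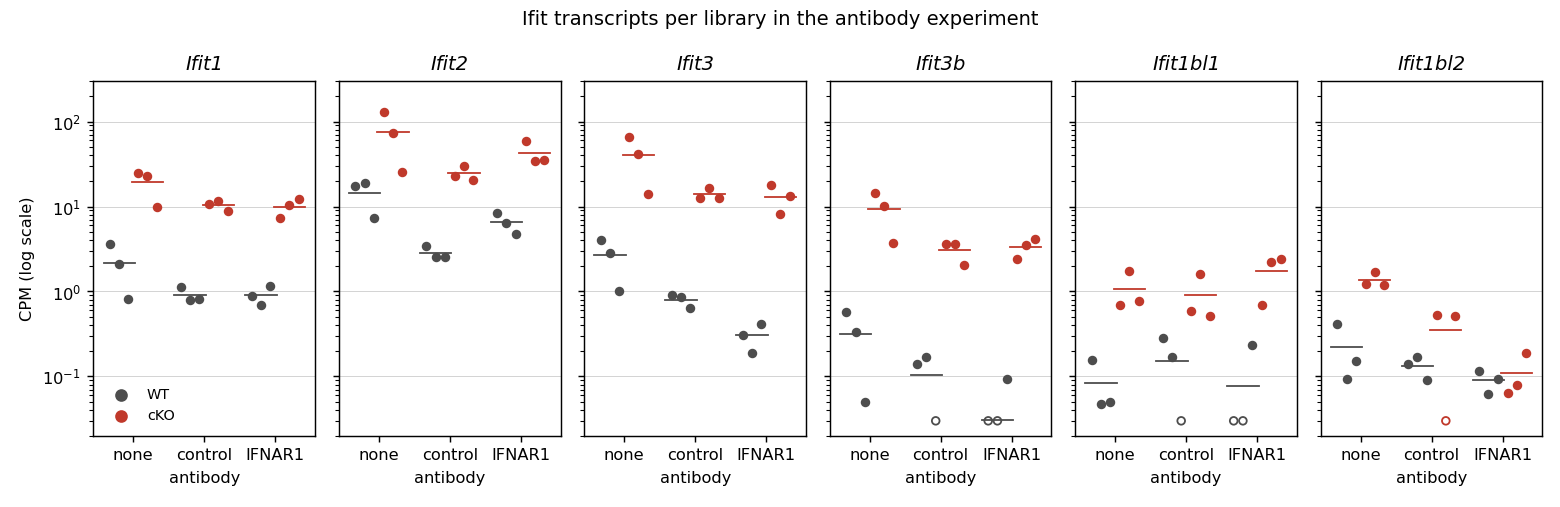
CPM of the 6 Ifit genes on a log axis, 1 point per library, in WT and cKO BMDMs grown with no antibody, control antibody or IFNAR1 antibody (open circles mark 0 CPM). The cKO points for Ifit1 sit at 8.82 to 11.6 CPM with the control and 7.42 to 12.2 CPM with the IFNAR1 antibody.

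Set directly against the control antibody in cKO cells, the IFNAR1 antibody took no Ifit gene past the threshold of edgeR's test, beside 4.03% of all genes called and 28.5% with no overlap. DESeq2 also called 0, and 1 member, Ifit1bl2, had an unadjusted p under 0.05. The log2 fold change of Ifit1 was -0.06 (95% interval -0.91 to 0.79, adjusted p = 0.952), that of Ifit3 -0.08 (-1.07 to 0.92, adjusted p = 0.949) and that of Ifit3b 0.09 (-1.10 to 1.29, adjusted p = 0.947). Ifit2 stood at 0.80 (-0.15 to 1.76, adjusted p = 0.342), Ifit1bl1 at 1.10 (-0.46 to 2.67, adjusted p = 0.435) and Ifit1bl2 at -1.94 (-3.48 to -0.40, adjusted p = 0.148). The intervals of Ifit1, Ifit3 and Ifit3b thus allow a change of about 1 log2 unit either way. In WT cells, where levels were near the lower limit, Ifit2 stood at 1.20 (adjusted p = 0.11), Ifit3 at -1.36 (adjusted p = 0.198), Ifit1 at 0.01, Ifit3b at -1.65, Ifit1bl1 at -0.96 and Ifit1bl2 at -0.53, and none of 6 members was called beside 9.89% of all genes, with 1 at an unadjusted p under 0.05 and 0 called by DESeq2. The difference of the antibody effects between genotypes (cKO minus WT) ran from -1.41 to 2.06 over the members with adjusted p from 0.927 to 0.994, no unadjusted p under 0.05 and 0 members called by DESeq2, and 0% of all genes passed edgeR's test.

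In the same cKO libraries other RNA-directed effectors fell with the IFNAR1 antibody, 6 of 17, with none higher. Oas3 fell by 2.37 (adjusted p = 0.0187) and Oasl2 by 2.45 (adjusted p = 0.0192) on the log2 scale. The others were Oas1a (-1.61, adjusted p = 0.00726), Oas1g (-1.78, adjusted p = 0.0363), Oas2 (-1.79, adjusted p = 0.037) and Oasl1 (-1.35, adjusted p = 0.0408), which were named after their values were seen. Zc3hav1, the zinc finger antiviral protein, stood at 0.18. Of 6 signalling genes 2 fell, Stat2 by 1.18 (adjusted p = 0.0102) and Irf9 by 0.99 (adjusted p = 0.0273), both parts of ISGF3 and also named after their values were seen, while Jak1 stood at -0.10 and Tyk2 at 0.19. No gene of the other lists was called. Ifih1 stood at -0.82 (adjusted p = 0.0834), Mavs at 0.24, Usp18 at -1.41 (adjusted p = 0.057), Socs3 at 1.46, Irf8 at 0.20, Irf5 at -0.07, Rnmt at 0.10 and Ramac at -0.10. The receptors Ifnar1 (0.25) and Ifngr1 (0.29), the ligand Ifnk (0.53) and the neighbours Lipa (-0.21) and Stambpl1 (0.75) did not pass. Whether the Ifit genes and the OAS genes differ in their response was not tested. The 4 stromal markers summed to 156 to 290 CPM in cKO cells with the control antibody and 40.7 to 84.4 CPM with the IFNAR1 antibody. With no antibody they summed to 34.9 to 77.2 CPM, and their part in these values was not tested.

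**Figure D4:**
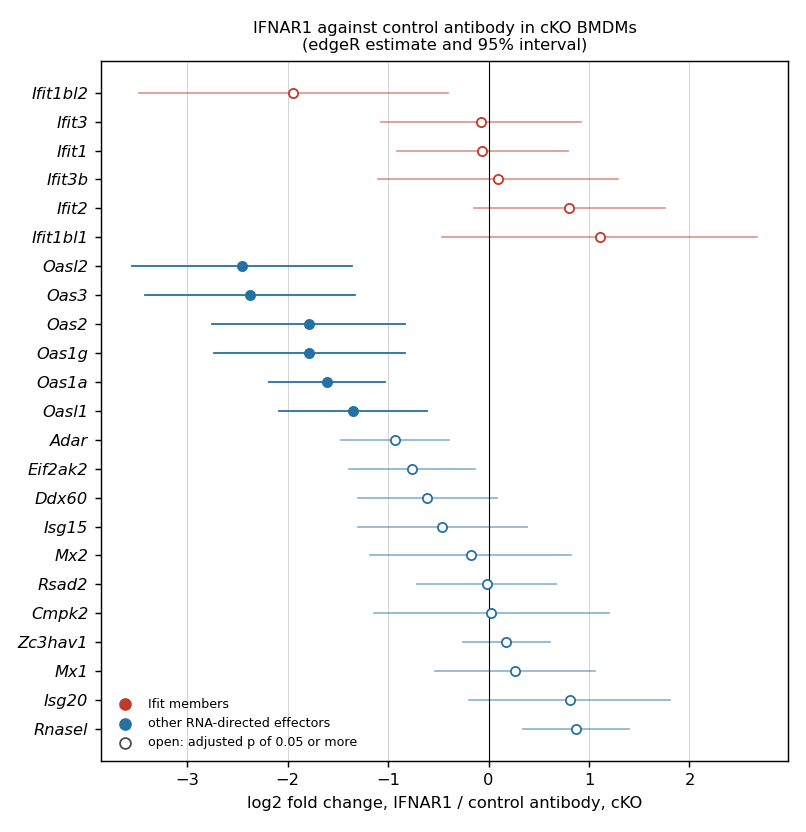
Log2 fold change, IFNAR1 against control antibody in cKO BMDMs, with 95% intervals by edgeR, for the 6 Ifit genes and 17 RNA-directed effectors, filled where the adjusted p was under 0.05. No Ifit gene and 6 effectors are filled, the latter between -2.45 and -1.35.

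The last experiment held 3 sets of WT and cKO BMDMs beside cKO cells that also lacked a sensor adaptor or Irf7. In set 1, Ifit1 stood at 33.4, 12.8 and 19.1 CPM in WT and 51.8, 46.9 and 48.3 CPM in cKO libraries. In set 2 it stood at 13.2, 14.9 and 14.2 CPM against 37.6, 52.2 and 30.2 CPM, and in set 3 at 29.0, 12.2 and 21.1 CPM against 35.5, 34.3 and 40.0 CPM. Ifit1 did not overlap between genotypes in any set, which was so for 41.4%, 44.5% and 43.2% of all genes in sets 1, 2 and 3. By edgeR over 18083 genes its log2 fold change was 1.18 (SE 0.28, adjusted p = 0.00207) in set 1, 1.5 (adjusted p = 0.000342) in set 2 and 0.81 (SE 0.28, adjusted p = 0.0263) in set 3.

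Ifit2, Ifit3 and Ifit3b had values near those of Ifit1, while the values of Ifit1bl1 and Ifit1bl2 varied more from set to set. Ifit2 gave 1.13 (adjusted p = 0.0161), 1.81 (adjusted p = 0.000658) and 0.81 (adjusted p = 0.0821) in sets 1 to 3, Ifit3 1.44 (adjusted p = 0.0041), 1.37 (adjusted p = 0.00855) and 1.20 (adjusted p = 0.0136), and Ifit3b 1.87 (adjusted p = 0.000798), 1.58 (adjusted p = 0.00449) and 1.44 (adjusted p = 0.00627). Ifit1bl1 was called in set 2 at 2.94 (adjusted p = 0.00311), and not in set 1 (0.28, adjusted p = 0.735) or set 3 (0.01, adjusted p = 0.991). In set 2 its WT libraries stood at 0.607, 0.584 and 0.729 CPM, while WT replicate 1 stood at 17.7 CPM in set 1 and 15.9 CPM in set 3, above every cKO library of those sets. Whether the effect on Ifit1bl1 differs between sets was not tested. Ifit1bl2 was called in set 1 (2.20, adjusted p = 0.000994) and set 3 (1.31, adjusted p = 0.014) and stood at 0.40 (adjusted p = 0.537) in set 2, with every library of the experiment at 0.0985 to 1.76 CPM. Of 6 members 5 were called in set 1 beside 34.7% of all genes (18% called higher), 5 in set 2 beside 21% (9.74% higher) and 4 in set 3 beside 34.9% (16.9% higher).

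These counts moved when 1 library was left out. In set 3 they fell to 1 without WT replicate 2 and to 2 without cKO replicate 3. WT libraries of sets 1 and 3 with the same number deviated together from their group means (correlations of 0.14 to 0.39), and the labels do not say whether these sets share cultures. Neutrophil markers summed to 77.9 to 208 CPM in the cKO libraries of the sets and 35.0 to 81.1 CPM in the WT libraries, and their part in the result was not tested.

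The double KOs asked whether STING, MAVS or IRF7 is needed for the Ifit levels of cKO cells. The labels do not name the set that belongs to a double KO. In the listed order of samples, set 1 comes just before cKO:StingKO, set 2 before cKO:MavsKO and set 3 before cKO:Irf7KO. Whether each set was grown with the double KO listed after it is not stated. Each double KO was set against the mean of the 3 cKO sets, and the 3 comparisons share these 9 control libraries. No Ifit gene had a lower mean after loss of Sting. Ifit1 stood at 55.4, 76.0 and 73.1 CPM in cKO:StingKO libraries against 30.2 to 52.2 CPM in the 9 cKO libraries (lowest and highest), and Ifit3 at 93.6, 119 and 113 CPM against 44.3 to 75.6 CPM. Ifit2 stood at 156, 229 and 208 CPM against 93.9 to 195 CPM, and Ifit3b at 18.5, 27.6 and 29.1 CPM against 9.52 to 16.2 CPM. All 3 cKO:StingKO libraries lay above all 9 cKO libraries for Ifit1, Ifit3 and Ifit3b, which was so, in either direction, for 23.9% of all genes. These 3 members rose, by log2 fold changes of 0.71 (SE 0.21, adjusted p = 0.0112), 0.96 (SE 0.28, adjusted p = 0.009) and 1.05 (SE 0.28, adjusted p = 0.00492), beside 36.1% of all genes called and 18.9% called higher. Ifit2 stood at 0.66 (adjusted p = 0.0652), Ifit1bl1 at 0.99 (adjusted p = 0.0702) and Ifit1bl2 at 0.10 (adjusted p = 0.84). The stromal markers summed to 162 to 199 CPM in the cKO:StingKO and 22.9 to 69.0 CPM in the 9 cKO libraries, without overlap, and their part in the result was not tested. Against set 1 alone 0 members were called, against set 2 alone 4 and against set 3 alone 3. Without cKO:StingKO replicate 2 or 3, 2 members were called. With no filter on low counts, with only these groups fitted or with a block by replicate number, 5 were. Irf7 itself, an ISG as well as an inducer, rose by 1.08 (adjusted p = 0.00018) in these cells.

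With loss of Mavs no Ifit gene passed the test in either direction. Ifit1 stood at 33.8, 48.9 and 33.2 CPM, Ifit2 at 116, 147 and 105 CPM and Ifit3 at 52.6, 62.5 and 44.0 CPM in the cKO:MavsKO libraries, all inside or just under the range of the cKO libraries. The log2 fold change was -0.10 for Ifit1 (95% interval -0.57 to 0.36), -0.03 for Ifit2 (-0.62 to 0.57), -0.07 for Ifit3 (-0.68 to 0.53) and -0.16 for Ifit3b (-0.79 to 0.46). Ifit1bl1, at 4.04, 5.83 and 3.95 CPM against 4.34 to 14.2 CPM in the cKO libraries, stood at -0.63 (-1.60 to 0.35), and Ifit1bl2 at -0.53 (-1.19 to 0.13), so that the mean of all 6 was below that of the cKO sets. None of 6 members was called, with adjusted p from 0.358 to 0.973, none at an unadjusted p under 0.05 and 0 by DESeq2, beside 8.79% of all genes. With only these groups fitted (-0.64, adjusted p = 0.0355), or with no filter on low counts (-0.64, adjusted p = 0.000243), Ifit1bl1 was called lower. The stromal markers summed to 80.2 to 288 CPM in these libraries, also above the cKO sets, and the neutrophil markers to 32.7 to 64.7 CPM against 77.9 to 208 CPM, and their part in the result was not tested.

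In cKO:Irf7KO cells, in which Irf7 itself fell by 1.73 on the log2 scale (98.3 to 112 CPM against 249 to 470 CPM, adjusted p = 2.98e-05), no Ifit gene was called lower. Ifit1 stood at 87.5, 58.8 and 53.8 CPM, Ifit2 at 387, 177 and 153 CPM, Ifit3 at 181, 81.8 and 74.3 CPM and Ifit3b at 37.1, 17.8 and 13.3 CPM. Replicate 1 was the highest library for each of these, and only Ifit1 lay above all 9 cKO libraries in all 3, beside 6.48% of all genes with no overlap. The log2 fold change was 0.68 for Ifit1 (SE 0.21, adjusted p = 0.0443), 0.93 for Ifit2 (SE 0.27, adjusted p = 0.0299), 1.01 for Ifit3 (SE 0.28, adjusted p = 0.0213) and 0.91 for Ifit3b (SE 0.28, adjusted p = 0.0409), so 4 of 6 members rose, beside 9.85% of all genes called and 4.36% called higher. Ifit1bl1, at 6.49, 7.07 and 5.92 CPM, stood at -0.14 (adjusted p = 0.899) and Ifit1bl2, at 1.76, 1.24 and 0.998 CPM, at 0.47 (adjusted p = 0.348). Without cKO:Irf7KO replicate 1 none was called, and Ifit1 stood at 0.44 (adjusted p = 0.365), Ifit2 at 0.40, Ifit3 at 0.48 and Ifit3b at 0.36. All 3 cKO:Irf7KO libraries lay below all 9 cKO libraries for H3f3b (71.9, 147 and 143 CPM against 187 to 220 CPM) and for H3f3a (3.78 to 5.33 CPM against 7.30 to 11.7 CPM), replicate 1 having the lowest H3f3b, and neutrophil markers summed to 50.2 to 77.0 CPM against 77.9 to 208 CPM. Their part in the result was not tested. Without cKO:Irf7KO replicate 2, or without replicate 1 of cKO set 3, 2 members were called, and without replicate 2 of cKO set 1, replicate 1 or 3 of cKO set 2 or replicate 2 of cKO set 3, 1 was. Against each set alone no member was called, and DESeq2 called 2.

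Against the mean of the WT sets, 4 members rose in all double KOs. Ifit1, Ifit2, Ifit3 and Ifit3b rose by log2 fold changes of 1.88, 1.91, 2.30 and 2.69 in cKO:StingKO, 1.06, 1.22, 1.26 and 1.47 in cKO:MavsKO and 1.85, 2.18, 2.35 and 2.54 in cKO:Irf7KO cells, and these values share their WT libraries. Ifit1bl1 rose in cKO:StingKO (2.07) and stood at 0.45 (adjusted p = 0.479) in cKO:MavsKO and 0.94 (adjusted p = 0.132) in cKO:Irf7KO cells. Ifit1bl2 rose in cKO:StingKO (1.40) and cKO:Irf7KO (1.77) and stood at 0.77 (adjusted p = 0.0752) in cKO:MavsKO cells. The libraries overlapped the 9 WT libraries for some members, and for Ifit1 1 cKO:MavsKO library (33.2 CPM) lay just below the highest WT library (33.4 CPM). In all, 6, 4 and 5 of 6 members were called, beside 40.3%, 42.6% and 31.5% of all genes called and 20.5%, 21.8% and 14.8% called higher.

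**Figure D5:**
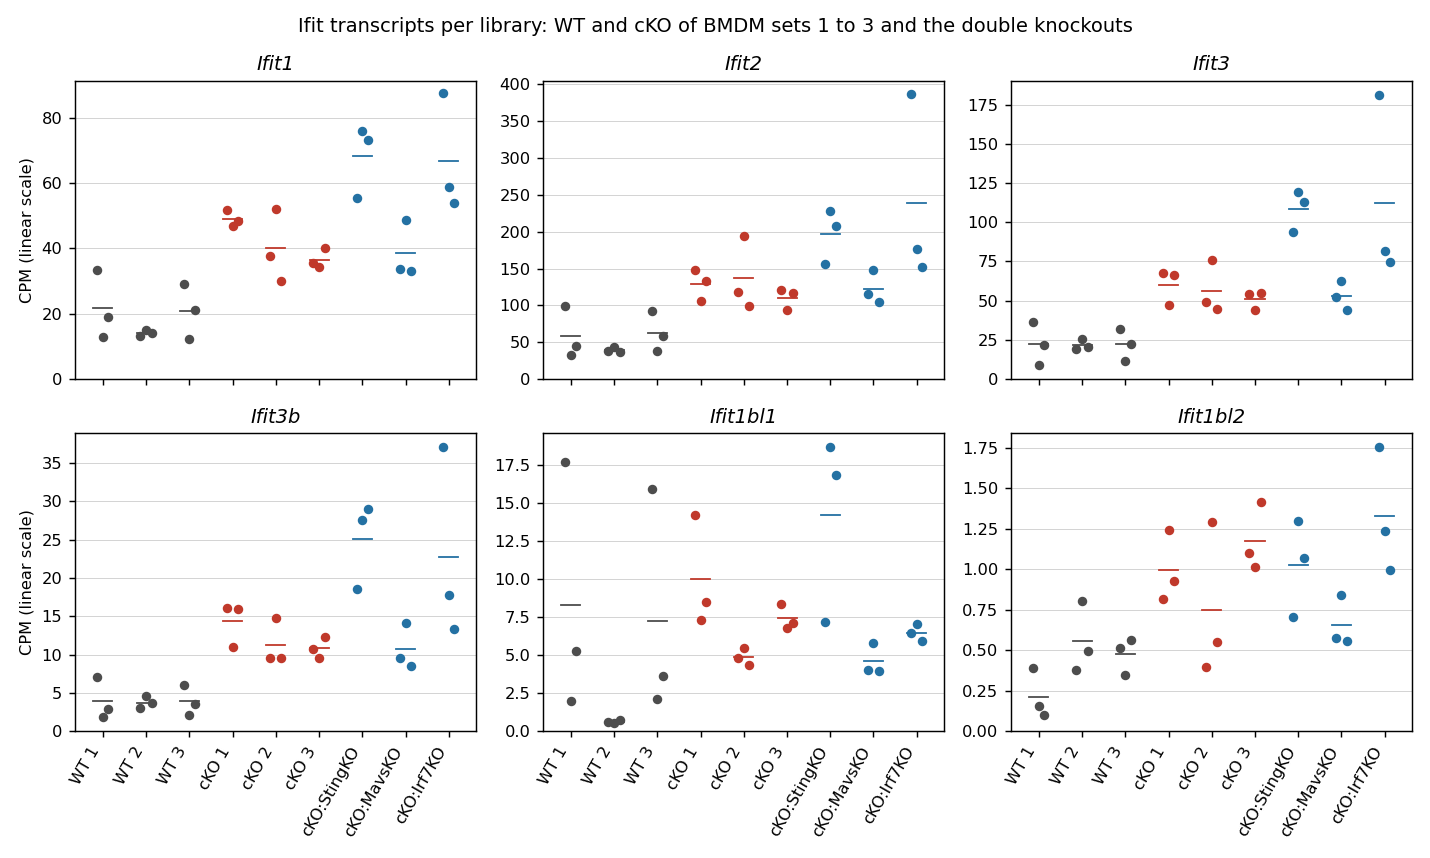
CPM of the Ifit genes on a linear axis from 0 in the 3 sets of WT and cKO BMDMs and the cKO:StingKO, cKO:MavsKO and cKO:Irf7KO cells, with 1 point per library and bars at group means. The 3 cKO:StingKO points for Ifit1 sit at 55.4 to 76.0 CPM, above the 9 cKO points, and replicate 1 of cKO:Irf7KO stands apart at 87.5 CPM.

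To compare members with each other, CPM was divided by exon length in kilobases. On that scale Ifit2 was the highest member in 16 of the 27 groups, Ifit3 in 9 and Ifit1 in 2, which were the WT and cKO peritoneal macrophages, and Ifit1bl2 was the lowest in 23. Ifit1, Ifit2 and Ifit3 were the 3 highest in 26 groups. In cKO cells on day 3 the order was Ifit3, Ifit2, Ifit1, Ifit3b, Ifit1bl1 and Ifit1bl2, where the first 3 overlapped their neighbours between libraries and the others did not. Of the summed CPM of the family, as a mean of shares per library, Ifit1 took 46.8% in WT and 43.8% in cKO peritoneal cells, where Ifit2 took 11% and 15.5%. In WT cells of day 3, Ifit2 took 69.6%.

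Across the 27 groups, the mean log2 level of Ifit1 followed that of Ifit3 with Pearson's r = 0.985 and that of Ifit2 with r = 0.974, and among the 10 pairs that leave out Ifit3b, the lowest value was that of Ifit1bl1 with Ifit1bl2 (r = 0.692). Outside the family, the genes closest to the mean of Ifit1, Ifit2 and Ifit3 among 11170 genes were Rsad2 (r = 0.989), H2-T24 (0.980), Mx2 (0.977), Mx1 (0.976) and Isg15 (0.973). Rsad2, Mx1, Mx2 and Isg15 are known ISGs. These values describe groups that were scaled within 5 experiments separately, differ in depth and partly share genotype and treatment.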

How the data were processed

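RNA-seq was done on 81 libraries of mouse macrophages or their bone marrow precursors. The authors deposited, for each library, raw read counts per gene from STAR (reads trimmed with Cutadapt and aligned to mm10, versions not given in the sources used here), and counts without regard to strand were used. Reads with several places in the genome, and reads that fall on no gene or on several, are not counted to a gene and were left out of library sizes. The gene models of Ifit1bl1 and Ifit1bl2 have different versions in different libraries (the older ones on day 8, in peritoneal cells, with antibodies, in set 3 and in cKO:Irf7KO), so levels of these genes across sets and double KOs may also differ by annotation. For peritoneal cells the labels and the methods name different library kits.

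Counts were scaled by edgeR's TMM factors within each of 5 experiments and printed as CPM. Genes passing filterByExpr (minimum count 10, minimum total 15) were tested with edgeR 4.0.16 (R 4.3.3), 1 quasi-likelihood model per experiment with 1 coefficient per group, with Benjamini-Hochberg adjustment across every gene in the model. Called means an adjusted p under 0.05. The SE is the log2 fold change divided by the square root of F. Alternatives used DESeq2 1.42.0, other scaling, filters, strand column, replicate blocks, reference sets and left-out libraries. The main edgeR fit was run on simulated counts for 1 comparison in each of the 5 experiments. The alternatives and the differences of effects were not simulated.

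The members and the gene lists were chosen with earlier results of these data known. The 6 members are the named genes, and those without a value of their own in a comparison stand in its counts and ranges. Of each list the 2 genes with the highest mean log2 CPM in an experiment are named, and others were named after their values were seen where this is said. Irf7 is also named in the cKO:StingKO and cKO:Irf7KO comparisons, after its values were seen in the first.

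Same-numbered libraries deviated together from their group means (every correlation over 0.1, from 0.126 to 0.467 over both comparisons of genotype concerned) on days 3 and 7, and also for day 7 against day 3 in cKO cells, IFNγ in WT cells, peritoneal macrophages and control against no antibody in WT cells. In these comparisons the replicate number was taken as pairing the libraries. Differently numbered libraries reached correlations of 0.214 on day 3, 0.359 on day 7 and 0.339 for day 7 against day 3 in cKO cells. These overlap the values of same-numbered libraries, so the pairing is less certain there. No 2 libraries of a group agreed within sampling noise. For 2 day 8 cKO libraries the labels contradict each other about IFNγ, and they entered no comparison.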

Additional observations from a re-analysis of the deposited data

Results flagged for a closer look

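Both day 8 cKO libraries without a group carried Ifit levels above every untreated WT library of that day, and this signal lies outside all comparisons made here. For the library whose title names IFNγ and whose library name does not, Ifit1 stood at 96.94 CPM, Ifit2 at 187.9 CPM, Ifit3 at 83.53 CPM, Ifit3b at 15.93 CPM, Ifit1bl1 at 5.20 CPM and Ifit1bl2 at 1.381 CPM. For the library whose name gives IFNγ and whose title does not, Ifit1 stood at 1563 CPM, Ifit2 at 5521 CPM, Ifit3 at 1150 CPM, Ifit3b at 230.4 CPM, Ifit1bl1 at 239.2 CPM and Ifit1bl2 at 1.927 CPM. The highest untreated WT library stood at 42.0 CPM for Ifit1, 93.3 CPM for Ifit2, 30.4 CPM for Ifit3, 6.15 CPM for Ifit3b, 3.18 CPM for Ifit1bl1 and 0.219 CPM for Ifit1bl2. Their treatment was not inferred from these values.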

How the results depend on the processing

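Of the counts of members called, 387 recomputed values stayed within 1.5 times the reported one and 56 did not. With RLE size factors no count moved past that range and no member changed sign. No value changed sign while called in both settings, and the cause of the moves below was not tested.

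With DESeq2, 5 members were called for the change of the cKO effect from day 3 to day 7, 2 for control against no antibody in each genotype and 2 for cKO:Irf7KO against cKO. With no filter on low counts, the counts were 5 for that change, 1 for day 7 against day 3 in cKO cells, 1 for the difference of IFNγ effects, 2 for control against no antibody in each genotype, 5 for cKO:StingKO and 1 for cKO:MavsKO against cKO, and Ifit1bl1 stood at -0.054 for the difference of IFNγ effects. With only the groups compared in the fit, 0 were called on day 5, 1 for day 7 against day 3 in cKO cells, 5 for the change from day 3 to day 7, 1 with IFNγ, 1 with the IFNAR1 antibody, 5 for cKO:StingKO and 1 for cKO:MavsKO against cKO. With a mean of at least 1 CPM, Ifngr2 (0.000299) and Jak1 (0.019) changed sign on day 3.

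With the stranded column, 2 members were called in peritoneal macrophages. For IFNAR1 against control antibody in cKO cells, Ifit1 then stood at 0.19, Ifit3 at 0.086 and Ifit3b at -0.41. Ifit1 stood at -0.042 in WT cells and at 0.24 for the difference, Ifit1bl1 at 0.075 for control against no antibody in cKO cells and Ifit1bl2 at 0.76 for the difference of IFNγ effects.

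With the replicate block, the counts were 1 for day 7 against day 3 in cKO cells, 5 for the change from day 3 to day 7 and 1 in peritoneal macrophages. Where the number paired no libraries, the block gave 1 for IFNAR1 against control antibody in WT cells, 1 for control against no antibody in cKO cells and 5 for cKO:StingKO against cKO, and elsewhere it moved no count past 1.5 times. For IFNγ in cKO cells same-numbered libraries had a correlation of -0.187, and with the numbers crossed, an alternative chosen after seeing the data, 6 of 6 members were still called.

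Against set 1 alone 0 members were called for cKO:StingKO and 0 for cKO:Irf7KO, and Ifit1bl1 stood at -0.83 (cKO:MavsKO) and -0.34 (cKO:Irf7KO) against WT. Against set 2 alone 0 were called for cKO:Irf7KO and Ifit1bl1 stood at 0.41 there. Against set 3 alone 0 were called for cKO:Irf7KO, Ifit1bl2 stood at -0.21 for cKO:StingKO, and Ifit1, Ifit2 and Ifit3 at 0.078, 0.15 and 0.053 for cKO:MavsKO. Ifit1bl1 stood at -0.67 and -0.18 against that set's WT cells for cKO:MavsKO and cKO:Irf7KO.

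With 1 library left out, the counts called ran from 0 to 5 on day 5, 0 to 3 for the change from day 3 to day 7, 2 to 3 on day 8 untreated, 2 to 5 with IFNγ, 0 to 2 for the difference of IFNγ effects, 0 to 3 in peritoneal macrophages, 3 to 5 with the IFNAR1 antibody, 0 to 1 and 0 to 2 for control against no antibody in WT and cKO cells, 1 to 5 in set 3 and 0 to 4 for cKO:Irf7KO against cKO. Where 1 library stayed in an arm it was assumed to vary like the other groups.

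Log2 fold changes that changed sign with 1 library left out were, on day 3, Ramac (-0.12 to 0.011), Socs3 (-0.42 to 1.77), Ifngr2 (-0.18 to 0.15) and Jak1 (-0.089 to 0.028). On day 7 they were Ifit3b (-0.12 to 2.10) and Ifit1bl1 (-0.72 to 0.29), and for day 7 against day 3 Ifit1bl2 in WT (-0.19 to 2.01) and Ifit1 (-0.39 to 0.20) and Ifit3 (-0.46 to 0.25) in cKO cells. On day 8 they were Ifit2 with IFNγ (-0.41 to 0.94) and Ifit1bl1 for the difference of IFNγ effects (-0.66 to 0.50).

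For IFNAR1 against control antibody in cKO cells they were Ifit1 (-0.23 to 0.12), Ifit3 (-0.36 to 0.17), Ifit3b (-0.12 to 0.29), Socs3 (-0.030 to 1.87), Irf5 (-0.15 to 0.041) and Zc3hav1 (-0.011 to 0.29). Ifit1 ran from -0.19 to 0.21 in WT cells and from -0.26 to 0.13 for the difference, Ifit1bl2 from -0.37 to 0.45 for cKO against WT with the IFNAR1 antibody, and for control against no antibody Ifit1bl2 from -0.99 to 0.17 in WT and Ifit1bl1 from -0.91 to 0.14 in cKO cells. In the last experiment they were Ifit1bl1 in set 1 (-0.20 to 1.52) and set 3 (-0.42 to 1.37), Ifit1bl2 in set 2 (-0.25 to 0.78) and for cKO:StingKO (-0.11 to 0.31), and Ifit2 (-0.18 to 0.086) and Ifit3 (-0.21 to 0.045) for cKO:MavsKO.

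Groups of 2 or 3 libraries limit every test here, and for Ifit1bl2 and WT Ifit3b so do the few counts.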
